A study of Mus musculus with 20 samples.

Results

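The genes described here are 7 enzymes and carriers that make fatty acids or supply the carbon and the NADPH for them: Fasn, Scd2, Slc25a1, Aacs, Me1, Idh1 and Tkt. They were chosen by function and on measured values, since they were picked with the line ratios of these same arrays known, chiefly the brown adipose ratios of both array designs and the liver ratio of Fasn. Their values there are therefore given as a description. Every clone annotated to them was taken, which gave 18 clones of 15360, 9 of the 7680 clones on each of 2 array designs. The first design held 6 of the genes (not Aacs) and the second held 5 (not Scd2 or Slc25a1). Of the 18 clones, 1 was annotated to both Scd2 and Scd1 and is called the shared Scd clone. Clones are named by the deposited number of their first spot.

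Fatty acids are built in the cytosol from acetyl units that leave the mitochondrion as citrate. Each round of elongation by fatty acid synthase is paid for with NADPH, which comes from malic enzyme, cytosolic isocitrate dehydrogenase and the pentose phosphate pathway. Brown adipose tissue, a heat-producing fat depot, and liver both run this pathway, and its enzymes are known to be switched together by feeding, insulin and sterol-regulated transcription factors.

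The arrays compared total RNA of mice of the F line, an obese selection line, with that of the Fob3b line, which is known to carry lean-line alleles at an obesity locus in the F background. All 20 arrays were competitive hybridisations on spotted cDNA, 10 per design. Each line and tissue had 2 RNA pools. Same-numbered pools of the lines shared an array, once with each dye assignment, on 8 liver and 6 brown adipose arrays. On the second design brown adipose tissue had pool pair 1 alone. The free-text descriptions of these 2 arrays name the F line on both sides, while their channel labels name Fob3b in one channel. The channel labels were used, and if the descriptions were right, the second-design brown adipose values would be no comparison of the lines. The other 6 arrays were of liver: 1 F pool against itself, 1 Fob3b pool against itself, 2 in which the pool numbers of the lines were crossed, and 1 between the pools of each line. The description of the Fob3b pool against itself also differs from its channel labels, which were used. The labels name no age, sex, diet or number of animals per pool. A line comparison has 2 pool pairs at most, and its p-values say nothing of single animals. The SE of a clone is limma's moderated one, which leans on the spread of all other clones (prior degrees of freedom of 8.76 beside 2 residual ones for the first design, and of 7.63 beside 1 for the second) and, on the first design, on both tissues. It can therefore lie well above or below what the clone's own 2 pool pairs would give.

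A value is the log2 ratio of a clone, averaged over its paired spots, after the median of the array was removed. Ratios were turned so that a positive value means more signal from Fob3b RNA than from F RNA, provided that red was divided by green. The labels do not say which dye was the numerator, and if it was green, every sign given here turns over together. The files hold no intensities, so no depth or signal over background could be given, and the labelled tissues could not be checked against their markers, whose absolute levels are not in a ratio. The paired spots of a member clone differed by a median of 0.087 (first design) and 0.05 (second design). The widest gap, 0.998, was that of the shared Scd clone on a brown adipose array, so its values are the least certain.

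Promoters are shown for 4 of the members, Fasn, Me1, Slc25a1 and Tkt. They run from 250 bases before to 50 after the RefSeq transcription start (assembly GRCm38.p6), with matches to 3 motifs in capitals. Idh1 and Aacs were positive in brown adipose tissue too, and their promoters are described below without sequences. The motifs, searched on both strands, were the CCAAT box (CCAAT), the GC box (GGGCGG) and the E-box (CACGTG). The Fasn promoter lies at chr11:120824498-120824797 on the minus strand, the first Me1 promoter at chr9:86695865-86696164 on the minus strand, the Slc25a1 promoter at chr16:17928170-17928469 on the minus strand and the Tkt promoter at chr14:30548881-30549180 on the plus strand.
Fasn: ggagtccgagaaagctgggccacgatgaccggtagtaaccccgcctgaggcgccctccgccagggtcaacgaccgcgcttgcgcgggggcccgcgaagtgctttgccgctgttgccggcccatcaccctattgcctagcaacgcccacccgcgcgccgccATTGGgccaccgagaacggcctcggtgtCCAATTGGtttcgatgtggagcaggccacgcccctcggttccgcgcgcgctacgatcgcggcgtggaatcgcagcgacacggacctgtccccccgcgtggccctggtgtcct
Me1: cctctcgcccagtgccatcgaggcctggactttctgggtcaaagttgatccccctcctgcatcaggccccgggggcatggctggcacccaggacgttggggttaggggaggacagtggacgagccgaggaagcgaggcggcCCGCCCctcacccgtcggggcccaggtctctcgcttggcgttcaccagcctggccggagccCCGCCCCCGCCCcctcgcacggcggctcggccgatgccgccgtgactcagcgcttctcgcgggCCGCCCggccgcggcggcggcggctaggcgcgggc
Slc25a1: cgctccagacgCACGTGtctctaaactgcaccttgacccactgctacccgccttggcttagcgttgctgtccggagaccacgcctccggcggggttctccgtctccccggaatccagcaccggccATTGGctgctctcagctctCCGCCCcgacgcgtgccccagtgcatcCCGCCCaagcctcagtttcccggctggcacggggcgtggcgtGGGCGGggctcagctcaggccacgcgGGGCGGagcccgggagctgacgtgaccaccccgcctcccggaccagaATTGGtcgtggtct
Tkt: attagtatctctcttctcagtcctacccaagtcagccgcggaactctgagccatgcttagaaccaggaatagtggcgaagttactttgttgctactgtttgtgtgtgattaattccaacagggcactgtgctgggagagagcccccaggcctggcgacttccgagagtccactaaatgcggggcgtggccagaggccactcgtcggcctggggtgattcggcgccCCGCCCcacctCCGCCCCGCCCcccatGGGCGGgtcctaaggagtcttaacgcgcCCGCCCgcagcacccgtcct

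Of the 7 members, 6 were in the promoter table, with 8 promoters in all; Scd2 was not. Fasn held 3 CCAAT matches, at -90, -62 and -59 from the start, the last pair overlapping on opposite strands as CCAATTGG. Slc25a1 held 1 E-box at -239, 2 CCAAT matches and 4 GC boxes. The first Me1 promoter held 4 GC boxes and Tkt 5, grouped near the start. The second Me1 promoter held 1 CCAAT match and 0 GC boxes. For Idh1, the first promoter held 1 CCAAT match and 2 GC boxes, and the second held 1 GC box. Aacs held 0 CCAAT matches, 0 GC boxes and 0 E-boxes. Among all 32851 promoters of the table, 37.41% held a CCAAT match, 35.66% a GC box and 7.15% an E-box. A sterol regulatory element written TCACNCCAC was in none of the 8 member promoters and in 1.24% of all promoters. A match is a description of the letters, not of a bound factor.

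In brown adipose tissue of pool pair 1, all 9 member clones of the first design were positive, from 0.64 to 1.77 with a median of 0.999, while the median of all clones was 0.02. In pool pair 2, 8 of the 9 were positive and the values were smaller, from -0.04 to 0.71 with a median of 0.29. Pool pair 1 was above pool pair 2 for 8 of the 9 clones. Brown adipose values of pool pair 1 on the second design were positive for 9 of 9 clones, from 0.34 to 1.20 with a median of 0.84.

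Fasn, which builds palmitate, had 1.14 and 0.86 on the brown adipose arrays of pool pair 1 of the first design, with Fob3b in green and in red. In pool pair 2 it had -0.39 and 0.82 in the same order. The 2 pair means were 0.999 and 0.22, an average of 0.61 (SD 0.55, moderated SE 0.30, n = 2 pool pairs). The second-design clone of Fasn had 1.23 and 0.73, a mean of 0.98. Only the array of pool pair 2 with Fob3b in green lay below 0.

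Scd2, a desaturase that puts a double bond into saturated acyl-CoA, had the highest brown adipose average of the 9 clones of the first design. It read 1.88 and 1.65 in pool pair 1 and -0.29 and 1.57 in pool pair 2. The pair means were 1.77 and 0.64, an average of 1.20 (SD 0.80, moderated SE 0.26, n = 2), or 2.30-fold, and it ranked 2 of 7680 clones. The shared Scd clone read 1.88 and 1.22 in pool pair 1 and 0.34 and -0.43 in pool pair 2. Its pair means were 1.55 and -0.04, so in pool pair 2 it lay within 0.04 of the array median.

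Slc25a1, the mitochondrial carrier that exports citrate, read 0.53 and 1.0025 in pool pair 1 and -0.31 and 0.94 in pool pair 2, with pair means of 0.76 and 0.32. Aacs, which turns acetoacetate into acetoacetyl-CoA in the cytosol, was on the second design alone and read 1.08 and 1.02. Its mean of 1.05 ranked 4 of 7680 clones, and its 2 dye orientations differed least among the 9 members on that design.

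Me1, the cytosolic malic enzyme that releases NADPH, had 2 clones on each design. On the first, clone 843 had pair means of 1.23 and 0.28 and clone 8720 had 1.22 and 0.28. These clones lie in different printing blocks. With the block medians removed they read 0.73 and 1.26 in pool pair 1 and 0.39 and 0.27 in pool pair 2. In liver they read -0.57 and -0.72 in pool pair 1 and -0.24 and 0.54 in pool pair 2, before that removal. On the second design, clones 31450 and 19851 read 1.20 and 0.82 in pool pair 1. Idh1, the cytosolic isocitrate dehydrogenase that also yields NADPH, had first-design pair means of 0.68 and 0.29, and 0.62 on the second.

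Tkt, the transketolase of the non-oxidative pentose phosphate pathway, had 2 clones on the first design. Clone 15244 read 0.77 and 0.52 in pool pair 1, with Fob3b in red and in green, and 1.83 and -0.42 in pool pair 2. Its pair means of 0.64 and 0.71 were thus close, while its pool pair 2 arrays lay farther apart than those of any other member. Clone 4824 had pair means of 0.81 and 0.42. On the second design its 4 clones read 0.84, 0.84, 0.78 and 0.34 in pool pair 1, clone 19605 being the low one.

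**Figure D1:**
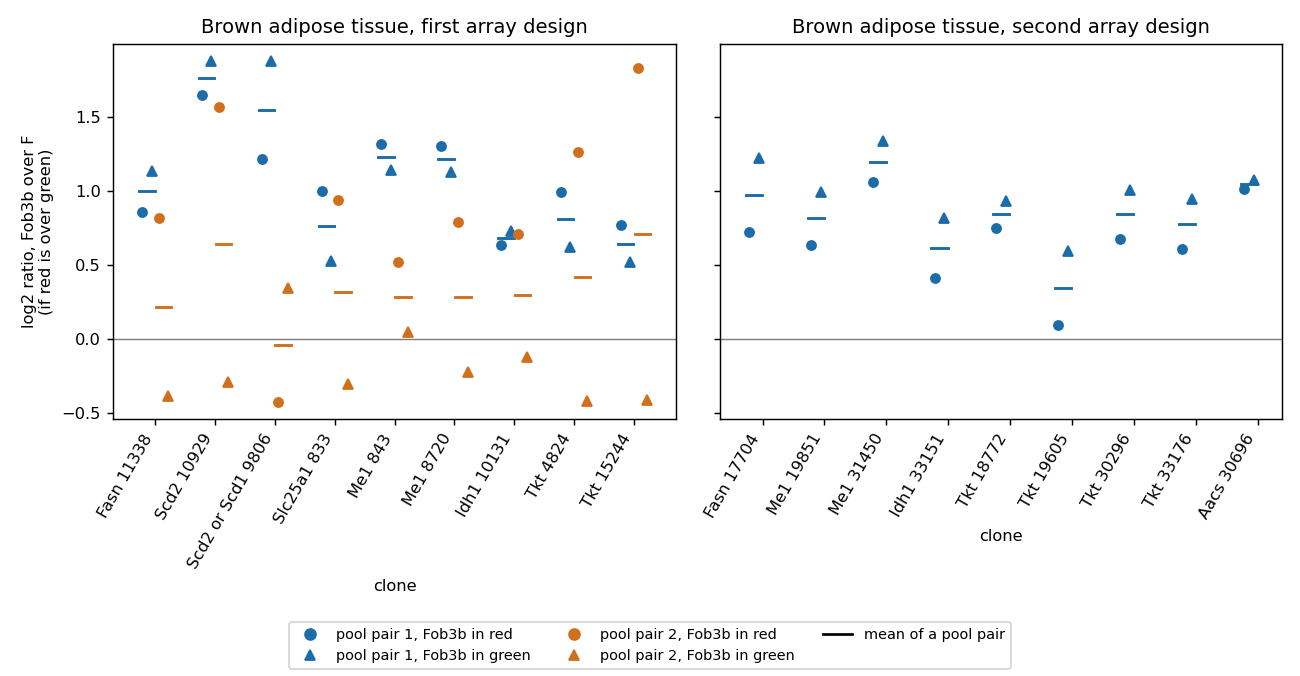
Log2 ratio of Fob3b over F for each member clone on each brown adipose array (vertical axis, array median removed, sign valid if red is over green), with circles for Fob3b in red, triangles for Fob3b in green and bars for pool pair means. All 9 clones of pool pair 1 (blue) lie above 0 on both designs. In pool pair 2 (orange, first design), 8 of 9 clones lie above 0 with Fob3b in red and 2 of 9 with Fob3b in green.

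The limma fit of the first design called 0 of 7680 clones in brown adipose tissue (0% at an adjusted p under 0.05), with 65 clones at an unadjusted p under 0.05, of which 7 were member clones. The lowest adjusted p in that comparison, over all clones, was 0.283, and each of the 9 members had an adjusted p of 1. When brown adipose tissue was fitted without liver, 4 clones were called. Scd2 was the only member among them, with a limma adjusted p of 0.00156 and the same mean of 1.20. Its pool pairs read 1.77 and 0.64, so this p leans on the spread of all other clones. Scd2 was also picked with this ratio known. Without pool pair 2, 1 clone was called, with the spread taken from liver, and no member. Of all clones on the first design, 2.58% were positive on every brown adipose array, and 1 of 9 members was, Me1 clone 843. On the second design, whose single pool pair has no test, 0.599% of clones (46 of 7680) were positive past 1.5-fold, and 8 of 9 member clones were, the exception being Tkt clone 19605. There 29.9% of all clones were positive on every array, with 9 of 9 members. The members' counts in brown adipose tissue follow from how they were picked.

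Without centring, 3 of the 9 second-design clones (Fasn, Aacs and Me1 clone 31450) stayed positive past 1.5-fold, Tkt clone 19605 was at -0.01, and the others stayed positive. The median of all clones before centring was -0.36 in that comparison and 0.30 in the first-design brown adipose comparison. Past 1.5-fold, the positive calls were 46 of 174 with centring, 7 of 1283 without, 56 of 113 with printing blocks centred and 24 of 61 with arrays scaled. On the first design all 9 members were positive under each of these settings.

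The dye orientations differed most in brown adipose pool pair 2 of the first design. The array with Fob3b in red had 8 of 9 members positive (median 0.82) and that with Fob3b in green had 2 of 9 (median -0.29), and 8 of 9 clones had opposite signs, beside 73.1% of all clones. The dye part is the difference of the turned arrays divided by 2, and the line part is their mean. The dye part exceeds the line part in size exactly when the signs are opposite, so for the same 8 of 9 clones there. The dye part had a median of 0.60 in that pool pair. In pool pair 1 it had a median of 0.09, and 0 of 9 members had opposite signs, beside 57.0% of all clones. By their channel labels, 2 liver arrays were self-self, and no line difference can appear in such arrays. The median red-over-green value of the members was -0.39 in the F pool (2 of 9 positive). In the Fob3b pool it was -0.21 (1 of 9), and the free-text description of that array differs from its channel labels. The sign of both self-self medians is opposite to that of the dye part medians of brown adipose pool pairs 1 and 2. It is also opposite to that of the first-design liver pool pairs 1 and 2 (dye part medians of 0.53 and 0.20). The part of the dye in the line ratios was not tested.

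**Figure D2:**
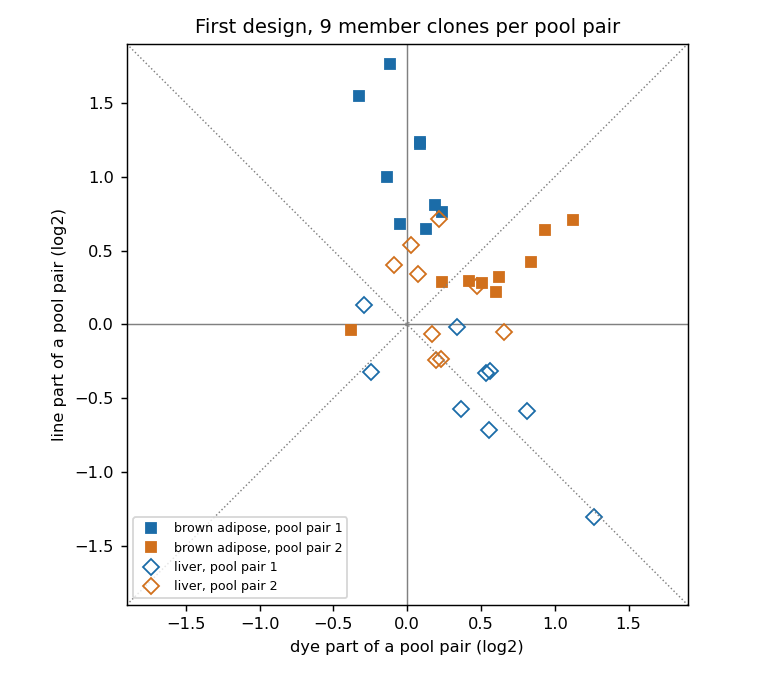
Line part (vertical axis, log2, mean of the turned dye orientations) against dye part (horizontal axis, log2) of the 9 first-design member clones in each pool pair and tissue, with dotted lines where they are equal. Brown adipose pool pair 1 (filled blue) lies high and near dye 0. In pool pair 2 (filled orange) the dye part is larger in size than the line part for 8 of 9 clones, which are those with opposite signs on its arrays.

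Printing blocks of the arrays also differed. The blocks that hold members had block medians between -0.22 and 0.51 in brown adipose pool pair 1 of the first design. After the block median was removed, the 9 clones ran from 0.26 to 1.99 in pool pair 1 and from 0.10 to 0.65 in pool pair 2, where all 9 were then positive. Slc25a1 and Me1 clone 843, in a block with a median of 0.51, shifted most in pool pair 1, from 0.76 to 0.26 and from 1.23 to 0.73.

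In liver of the first design the members did not lie on one side. Pool pair 1 had 1 of 9 positive (median -0.33), beside 44.1% of all clones. Pool pair 2 had 5 of 9 (median 0.26), beside 57.9% of all clones. Fasn read 0.22 and -1.40 in pool pair 1 with Fob3b in red and in green, and 0.93 and 0.49 in pool pair 2. Its pair means of -0.59 and 0.71 therefore had opposite signs. Idh1 had pair means of -1.30 and 0.40, and 1 array (Fob3b in green, pool pair 1) read -2.57. Me1 clone 843 was negative on all 4 liver arrays, the only such member, with a mean of -0.41 (SE 0.24). The fit called 0 of 7680 clones (0%), with 253 at an unadjusted p under 0.05 and 0 of 9 members among them. Positive on every liver array were 4.8% of all clones and 0 of 9 members.

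The difference between the tissues, liver minus brown adipose tissue, was negative for 9 of 9 members on the first design, from -1.25 for Scd2 to -0.52 for Tkt clone 15244, with a median of -0.84. The fit called 0 of 7680 clones (0%), with 220 clones at an unadjusted p under 0.05, of which 3 were members (Me1 clone 843, Scd2 and Slc25a1). Each member had an adjusted p of 0.9996. With a liver pool pair left out, the remaining one is assumed to vary like the brown adipose pairs, which alone supply the spread. Without liver pool pair 2, 95 clones and 3 members (both Me1 clones and Idh1) were called, and without liver pool pair 1, 13 clones and 0 members. In that setting the difference of Fasn turned to 0.10. The choice of members used the brown adipose values, which enter this difference.

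In liver of the second design 1 member, Fasn, was among the called clones; this ratio was known when the members were picked, so the call is a description and no independent support. Fasn had 0.39 and 0.74 in pool pair 1 and 0.67 and 0.70 in pool pair 2, with Fob3b in green and in red, all 4 on one side. The mean was 0.63 (SD 0.09, moderated SE 0.08, n = 2 pool pairs), or 1.55-fold, with a limma adjusted p of 0.0422. It ranked 3 of 7680, and 29 clones (0.378%) were called, 2 positive and 27 negative. The value stayed between 0.62 and 0.67 while the call was lost with printing blocks centred (0.64, adjusted p 0.116), scaled arrays (0.67, 0.0939), the first spot alone (0.62, 0.138) or each array as its own replicate (0.63, 0.0581). The value itself was lower without centring (0.26, adjusted p 0.283) and in a fit of the 4 pools (0.46, 0.295). The call was kept with the second spot (0.64, adjusted p 0.011). The 29 calls became 159 without centring, all negative.

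The other members were closer to 0 in that comparison. Aacs, with 0.34 and 0.15 in the pool pairs, and Idh1, with 0.18 and 0.28, had means of 0.24 and 0.23, with unadjusted p of 0.0224 and 0.0230 and adjusted p of 0.358 and 0.362 in limma. The 4 Tkt clones had means from -0.09 to 0.19, and both Me1 clones lay within 0.09 of 0. With centring 7 of 9 members were positive, beside 48.8% of all clones. Without centring 1 of 9 was, Fasn, as the median of all clones was -0.37 before centring. Positive on every array were 5 of 9 members and 9.08% of all clones.

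**Figure D3:**
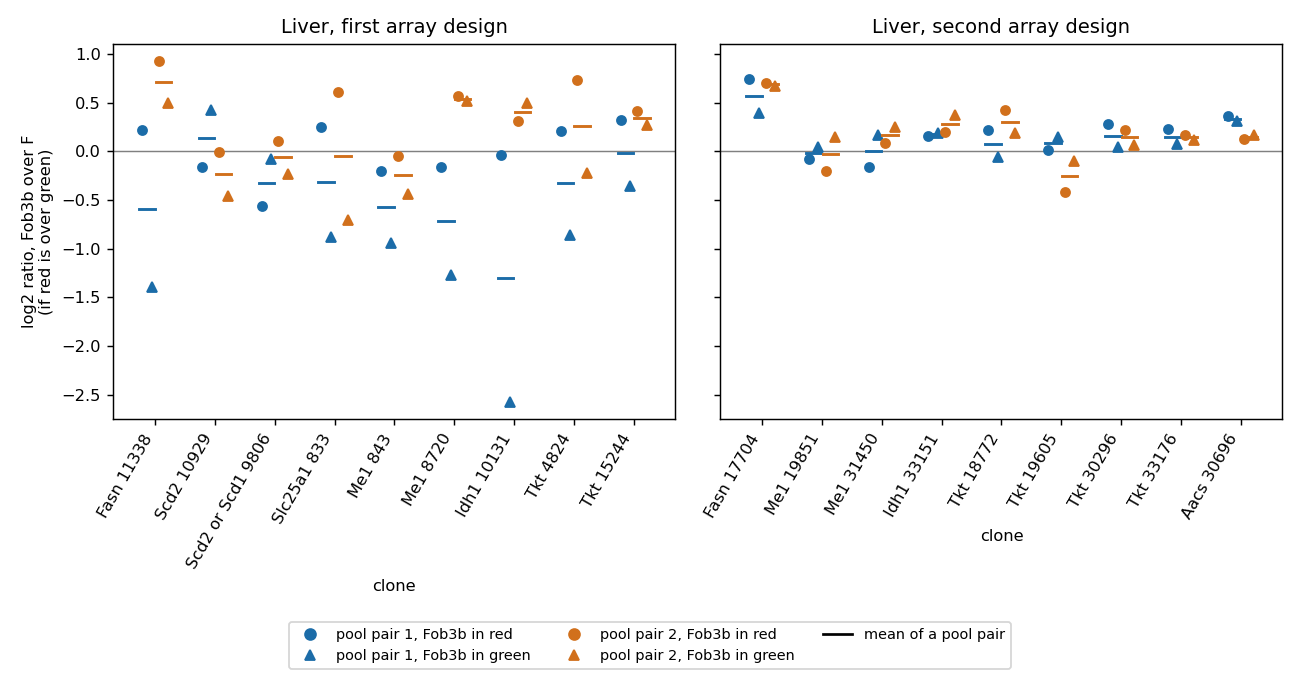
Log2 ratio of Fob3b over F for each member clone on each liver array (vertical axis, array median removed, sign valid if red is over green), drawn as for brown adipose tissue. The first-design values run from -2.57 to 0.93 on both sides of 0, and on the second design Fasn is the only clone with all 4 arrays at or above 0.39.

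The 4 liver pools were also hybridised with the pool numbers crossed, which gives a second reading of the line difference on other arrays. If ratios add up, the mean of the 2 crossed arrays equals that of the direct pool pairs. Fasn had a direct mean of 0.63 and a crossed mean of 0.11, from 0.56 for Fob3b pool 1 over F pool 2 and -0.33 for Fob3b pool 2 over F pool 1. Aacs had 0.24 direct and -0.21 crossed, and Idh1 had 0.23 and 0.05. Of the 9 members, 7 were positive in the direct mean, beside 48.8% of all clones. In the crossed mean, whose member median was -0.07, 2 were positive, beside 50.3% of all clones. Over all 7680 clones the direct and crossed means had a Pearson correlation of 0.12, across clones that share pools and arrays. The crossed arrays had opposite dye orientations (Fob3b pool 1 in green, Fob3b pool 2 in red), so a dye part common to both cancels in their mean but not in either array alone. With the crossed arrays added to the fit, Fasn had a mean of 0.37 and an adjusted p of 0.9997, and 0 clones were called.

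Between the pools of a line, Idh1 was -0.48 in Fob3b pool 2 over pool 1, and Aacs was 0.47 in F pool 2 over pool 1 and 0.35 in Fob3b. Fasn differed by 0.20 between the F pools and by 0.04 between the Fob3b pools. Each of these was a single array with pool 2 in red and pool 1 in green, so a dye part and a pool difference cannot be told apart in them.

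**Figure D4:**
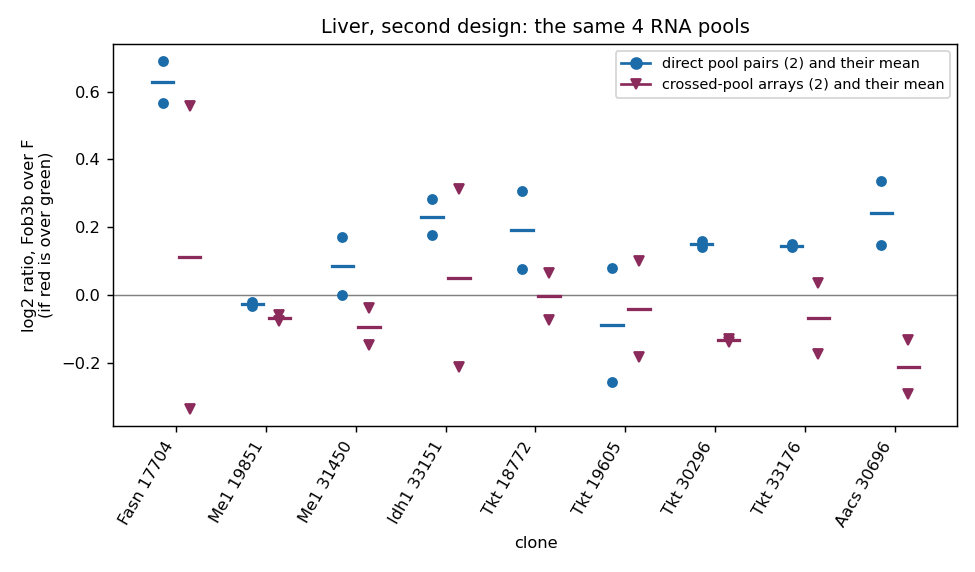
Liver log2 ratio of Fob3b over F on the second design for the 9 member clones (vertical axis, sign valid if red is over green), with blue circles for the 2 direct pool pairs, purple triangles for the 2 crossed-pool arrays and bars for their means. The crossed mean lies below the direct mean for 8 of 9 clones, Tkt clone 19605 being the exception.

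The other genes of the pathway were taken from lists of 75 genes that hold no member. Since the members were picked for high brown adipose ratios, the levels of the lists and of the members are not compared. The lists were also chosen with earlier results of these data known, so their counts are a description. In brown adipose tissue of the first design, 22 list genes were measured and 19 were positive, with a median of 0.16, beside 59.3% of all genes and a median of 0.03. The 7 measured genes of the citrate and malate shuttle had positive means there, led by Cs (0.44), citrate synthase, and Mdh1 (0.41), cytosolic malate dehydrogenase, with near-equal values in the pool pairs. Of these 7, Slc25a13, Slc25a10 and Got1 had a negative value in one pool pair. Elovl6, the fatty acid elongase, had 0.36 and 0.37 in pool pairs 1 and 2.

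In first-design liver 6 of 22 list genes were positive, with a median of -0.06, beside 44.9% of all genes and a median of -0.02. The shuttle genes were positive for 0 of 7. On the second design 10 of 16 were positive in brown adipose tissue (median 0.10, beside 56.1% of all genes). Got2, the mitochondrial aspartate aminotransferase of the shuttle, had the largest value in size of these 16, -0.54, and Mdh2, mitochondrial malate dehydrogenase, read 0.31. Taldo1, the transaldolase that works beside transketolase, read 0.45, and Srebf1, a regulator of lipogenic genes, read 0.36. The median of all clones before centring was -0.36 in second-design brown adipose tissue. These values and the count of positive genes there thus rest on the centring. In second-design liver 8 of 16 were positive (median 0.01, beside 51.4% of all genes), and none of the 16 had a clone among the 29 called.

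Markers of other cell types were few on the arrays. The skeletal muscle markers Tpm2 and Actn3 read -0.58 and -0.47 in brown adipose tissue of the first design. In pool pair 1, the pair hybridised on both designs, Tpm2 read -0.89 on the first and 0.73 on the second. The adipocyte marker Lpl read -0.25 and the endothelial marker Cdh5 0.21 in first-design brown adipose tissue, and the hepatocyte markers Apoa1, Ttr and Alb had -0.17, -0.16 and -0.05. No brown adipocyte marker was measured on the first design. On the second, Elovl3 and Prdm16 read -0.06 and -0.15. In first-design liver, Alb read -0.74 (pair means -1.26 and -0.22). Apoa1 read -0.17 (pair means -0.65 and 0.31) and Ttr -0.15 (-0.47 and 0.16), so both were positive in pool pair 2. The macrophage marker Lyz2 read -0.44 in first-design liver. Cdh5 read 0.64 there, with 0.24 and 1.04 in the pool pairs. Their part in the member values was not tested. In bulk tissue, fewer cells of a type and less RNA per cell cannot be told apart.

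Profiles across arrays are given as a description, since the members were picked as high on brown adipose arrays that enter these correlations. Over the 8 line arrays of the first design, the correlation of each gene with the mean of the other members ran from 0.573 for Scd2 to 0.937 for Me1, and over the 6 of the second design from 0.773 for Fasn to 0.983 for Tkt. These arrays also share pools and dyes. The genes outside the group whose array profile was most like that of the members were Deptor (r = 0.963), Fdft1 (0.949), the squalene synthase, Csad (0.943), Anapc7 (0.94) and Atp5h (0.934) on the first design, where the median of 3832 genes was 0.127 and the 95th percentile 0.771. On the second they were Retreg1 (0.998), Map1lc3b, Ptp4a2, Tpst1 and 9430029L20Rik (each 0.993), where the 95th percentile of 4070 genes was 0.837. Deptor and Fdft1 had brown adipose means of 1.72 and 1.01, while Csad, Atp5h and Anapc7 had 0.23, 0.14 and 0.03. On the second design, Retreg1 had 0.61, 9430029L20Rik and Tpst1 each 0.41, Ptp4a2 0.35 and Map1lc3b 0.02.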

How the data were processed

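Total RNA of liver and brown adipose tissue had been hybridised on 2 designs of spotted cDNA array. The deposited values are 1 log ratio of the dyes per spot, taken as log2; no source used here states the base, the numerator, or how the authors made or normalized them. Each design had 7680 clones on paired spots 160 rows apart, and the 1920 control spots were left out. Where descriptions and channel labels differed (the second-design brown adipose arrays and the Fob3b self-self array), the channel labels were used. Arrays were centred on the median of all clone spots, spots averaged, signs turned by the channel labels and dye-swapped arrays averaged per pool pair. The test was limma's moderated one (limma 3.58.1, R 4.3.3), with both tissues of each design in 1 fit and tissue as factor, two-sided, with Benjamini-Hochberg adjustment over 7680 clones and a threshold of 0.05. The scripts were tested on simulated data. The brown adipose pair of the second design has no test and used a 1.5-fold threshold. Gene names come from the platform annotation. The text names every member clone, up to 4 genes per pathway list and the 5 genes most like the members per design. The members and lists were chosen with earlier results of these data known. Alternatives covered centring, scaling, spots, clones, arrays, tissues, pool pairs and the crossed-pool arrays.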

Additional observations from a re-analysis of the deposited data

Results flagged for a closer look

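Of 27 member groups of 4 arrays, 3 held an array far from the other 3, where the rule's critical value lets chance flag about 1 in 20; the groups share arrays. In brown adipose tissue of the first design, the array of pool pair 2 with Fob3b in green read -0.12 for Idh1 clone 10131 and -0.29 for Scd2, below the other arrays. In liver of the second design, the same pool pair and orientation read 0.37 for Idh1 clone 33151, above the others.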

How the results depend on the processing

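On the first design no member passed, except Scd2 with brown adipose tissue fitted alone and, without liver pool pair 2, Idh1 in liver and both Me1 clones and Idh1 in the difference. Calls over all clones in brown adipose tissue were 1 without centring and 4 with each tissue fitted alone, when 1 member was called. Leaving out a pool pair, which leaves 1 pair assumed to vary like the other tissue's, gave 42 to 140 calls in liver (0 to 1 member), 13 to 95 for the difference (0 to 3 members), and 0 to 1 in brown adipose tissue. In liver of the second design the 29 calls became 159 without centring, 0 with printing blocks centred, scaled arrays, the first spot, crossed-pool arrays added or a fit of 4 RNA pools, 2 with each array as its own replicate, 7 with genes averaged and 75 with the second spot. Leaving out a pool pair there leaves no residual degrees of freedom, so it gives values alone, 0.57 to 0.69 for Fasn. The 1 called member was then not called (0) in all of these but the gene-averaged and second-spot settings. Past 1.5-fold in brown adipose tissue of the second design there were 1283 clones (3 members) without centring, 113 with blocks centred, 61 with scaled arrays and 62 (5 members) with genes averaged.

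Signs of single clones turned as follows, and the cause was not tested. In first-design liver, Fasn was -0.0281 without centring, Slc25a1 0.0245 with blocks centred and Tkt clone 4824 0.0631 with genes averaged. Leaving out one liver pool pair or the other there gave -0.59 to 0.71 for Fasn, -0.33 to 0.26 for Tkt clone 4824, -0.0183 to 0.34 for Tkt clone 15244, -0.72 to 0.54 for Me1 clone 8720, -1.30 to 0.40 for Idh1 and -0.23 to 0.13 for Scd2, and -1.20 to 0.10 for the difference of Fasn between the tissues. The lower end for Idh1 rests on 1 pool pair, with an array at -2.57, and its adjusted p of 0.00321 takes the spread from the brown adipose pairs. Leaving out a brown adipose pool pair gave -0.041 to 1.55 for the shared Scd clone. In second-design liver without centring, Tkt clones 18772, 30296 and 33176 were -0.17, -0.21 and -0.22, Aacs -0.12, Me1 clone 31450 -0.28 and Idh1 -0.14. Tkt clone 19605 was 0.0226 with blocks centred and 0.10 with genes averaged. Me1 clone 19851 was 0.0809 with blocks centred, 0.0078 with scaling and 0.0305 with genes averaged, and clone 31450 -0.0028 with crossed-pool arrays added.

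The labels do not say that pool numbers are shared animals between tissues. With pool number as a replicate block on the first design, 0 clones were called in each comparison, and the lowest member adjusted p was 0.999 in brown adipose tissue, 0.764 in liver and 0.739 for the difference. Deviations of same-numbered pairs in the 2 tissues correlated at 0.382 over clones. An added alternative, centring on clone means, chosen after seeing the data, changed no call of a member. Without intensities, signal over background limits could not be given.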
